A study of Mus musculus with 6 samples.

Results

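The genes that build, lengthen and desaturate fatty acids were examined in mouse hearts labelled KO, for loss of the orphan nuclear receptor ERRα (estrogen-related receptor alpha, gene Esrra), and in wild-type (WT) hearts. The 10 members were the fatty acid synthase gene Fasn, the elongase genes Elovl1, Elovl5 and Elovl6, the stearoyl-CoA desaturase genes Scd1, Scd2 and Scd4, and the desaturase genes Fads1, Fads2 and Fads3. They were chosen by name, and every probe set whose only symbol in the platform table is that of a member was taken. This gave 23 of 45099 probe sets, for 9 of the 10 genes. Scd4, known as a largely cardiac isoform in mouse, had no probe set of its own in that table and was not analysed here.

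The study used 6 hearts, with 1 Affymetrix Mouse430_2 array for each. KO 1 to 3 are the hearts of mice labelled KO, which the series text calls ERRα-null, and WT 1 to 3 are those of WT mice. All 6 mice were male and kept under basal conditions. KO 1 to 3, WT 2 and WT 3 are labelled C57BL/6J and 2 to 3 months old, and the labels of WT 1 give neither strain nor age. The array header of WT 1 also carries a mouse number that differs from the one in its title. The sources used here do not say how the null line was made or which part of Esrra it lacks. RNA came from heart tissue of mixed cells, so fewer cells of a type and less RNA per cell cannot be told apart in any difference below.

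Saturated fatty acids are made from acetyl-CoA and malonyl-CoA by fatty acid synthase, which releases mainly palmitate. Elongases add carbons in the endoplasmic reticulum, and desaturases insert double bonds there, using electrons passed on by cytochrome b5. Adipocytes and liver are known for high rates of this synthesis, which is driven by the SREBP and LXR transcription factors, whereas the heart mostly takes up and burns fatty acids made elsewhere. Scd1, Fasn and Elovl6 are classic products of the lipogenic program, while Fads1, Fads2 and Elovl5 serve the synthesis of polyunsaturated chains.

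The sequences upstream of 4 members are shown because these genes differ in how they behaved: Fasn and Elovl6 were among the genes that rose, Fads3 was lower in every heart labelled KO without passing the test, and Elovl5 overlapped between the groups. Each run is the 250 bases before the annotated start, 5′ to 3′ on the gene's own strand, from RefSeq on GRCm38.p6. Their positions are chr11:120824548-120824797 on the minus strand for Fasn, and on the plus strand chr3:129532136-129532385 for Elovl6, chr9:77917115-77917364 for Elovl5 and chr19:10041298-10041547 for Fads3. Capitals mark matches on either strand to the motifs listed after the sequences.
Fasn: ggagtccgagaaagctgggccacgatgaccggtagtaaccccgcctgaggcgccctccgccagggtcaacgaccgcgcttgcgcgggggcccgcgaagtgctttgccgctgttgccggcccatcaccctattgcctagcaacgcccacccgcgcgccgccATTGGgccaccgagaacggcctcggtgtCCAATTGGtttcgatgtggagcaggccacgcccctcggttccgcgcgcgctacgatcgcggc
Elovl6: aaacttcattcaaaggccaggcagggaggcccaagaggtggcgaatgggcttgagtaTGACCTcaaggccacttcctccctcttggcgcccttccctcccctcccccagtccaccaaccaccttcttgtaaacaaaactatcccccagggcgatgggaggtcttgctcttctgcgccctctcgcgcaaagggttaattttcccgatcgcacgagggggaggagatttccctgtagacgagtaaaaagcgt
Elovl5: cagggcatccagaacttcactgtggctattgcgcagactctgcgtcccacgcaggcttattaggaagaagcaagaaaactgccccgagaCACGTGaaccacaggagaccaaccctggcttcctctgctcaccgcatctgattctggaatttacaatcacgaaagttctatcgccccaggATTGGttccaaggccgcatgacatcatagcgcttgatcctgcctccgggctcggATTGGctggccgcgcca
Fads3: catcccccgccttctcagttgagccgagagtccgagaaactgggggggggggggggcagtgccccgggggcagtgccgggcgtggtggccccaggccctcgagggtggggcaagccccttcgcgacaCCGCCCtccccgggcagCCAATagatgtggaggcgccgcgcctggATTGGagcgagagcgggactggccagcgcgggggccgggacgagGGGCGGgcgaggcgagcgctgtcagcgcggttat

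Upstream windows were listed for 7 of the 10 members, with 8 windows in all because Elovl1 has more than 1 start. Fads1, Scd1 and Scd2 were not among them. The motifs searched were the ERR site TCAAGGTCA, the nuclear receptor hexamer AGGTCA that it contains, the sterol regulatory element TCACNCCAC, the CCAAT box CCAAT, the GC box GGGCGG and the E-box CACGTG. The ERR site was in 0 of the 8 windows and in 0.387% of 32851 windows of all genes. The sterol regulatory element was in 0 of the 8 windows and in 1.05% of all. AGGTCA was in the windows of Elovl6, where its leftmost base lies at -193 from the start, and of Elovl1, against 14% of all windows. Fasn held the CCAAT box at -90, -62 and -59, of which the last 2 overlap, and Elovl5, Fads3 and Elovl1 held it too, against 33.8% of all windows. The GC box was found in Elovl1, Fads2 and Fads3 (32.7% of all windows) and the E-box in Elovl5 (6.02%). These matches describe the letters of a short window and say nothing of binding.

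The deposited MAS5 signals were compared on the scale log2(signal + 16), on which a difference understates the change of a dim gene. Genes were represented by their brightest probe set, and 12946 genes passed a filter on dim signals. Median signals per array lay between 13.4 and 13.7 in the hearts labelled KO and between 12.4 and 16 in WT, which shows unequal levels, and WT 1 was the brightest. Without detection calls, it could not be said of a dim signal whether it exceeded background. Esrra, which checks the labels, gave 180.1, 24 and 18 in KO 1 to 3, against 368.1, 394.4 and 349.1 in WT 1 to 3. The heart labelled KO 1 kept 48.6% of the WT mean, which goes against its label, whereas KO 2 and KO 3 were at 6.48% and 4.86%. Directions for the hearts labelled KO include KO 1 unless its omission is stated. The Esrra difference was -2.58 (SE 0.475, adjusted p = 0.0678) when limma was fitted to all probe sets with no filter. It was -3.39 without KO 1 (adjusted p = 4.25e-06), and over all alternatives of that fit the adjusted p reached 0.519. Ventricular myocyte genes were bright on every array, with a summed signal over 9 markers of 59394 to 63570 in the hearts labelled KO and 62839 to 70672 in WT.

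Scd1, Fasn and Elovl6 rose in the hearts labelled KO, and the other 6 genes measured did not pass the test. Thus 3 of 9 members were called higher at an adjusted p under 0.05 (limma, two-sided, Benjamini-Hochberg over all genes), where 1.78% of all genes tested were. None was called lower, against 1.18% of all genes (2.97% in either direction), and at an unadjusted p under 0.05 4 members were higher (6.07% of all genes) and 1 lower (6.44%). The log2 difference had a median of 0.33 over the 9 members and of -0.028 over all genes. Elovl6 passed the filter on dim signals only through the hearts labelled KO, since its WT mean of 3.7 lies under the filter's signal of 8.17, so these counts are a description. Without KO 1 the same 3 genes passed, with differences of 2.66 for Scd1, 1.25 for Fasn and 1.17 for Elovl6, where 3.92% of all genes did. All 3 hearts labelled KO lay above all 3 WT hearts for Scd1, Scd2 and Elovl6 (6.81% of all genes), and below them for Fads3 (9.41% of all genes), which makes 4 members separated in either direction (16.2% of all genes).

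**Figure D1:**
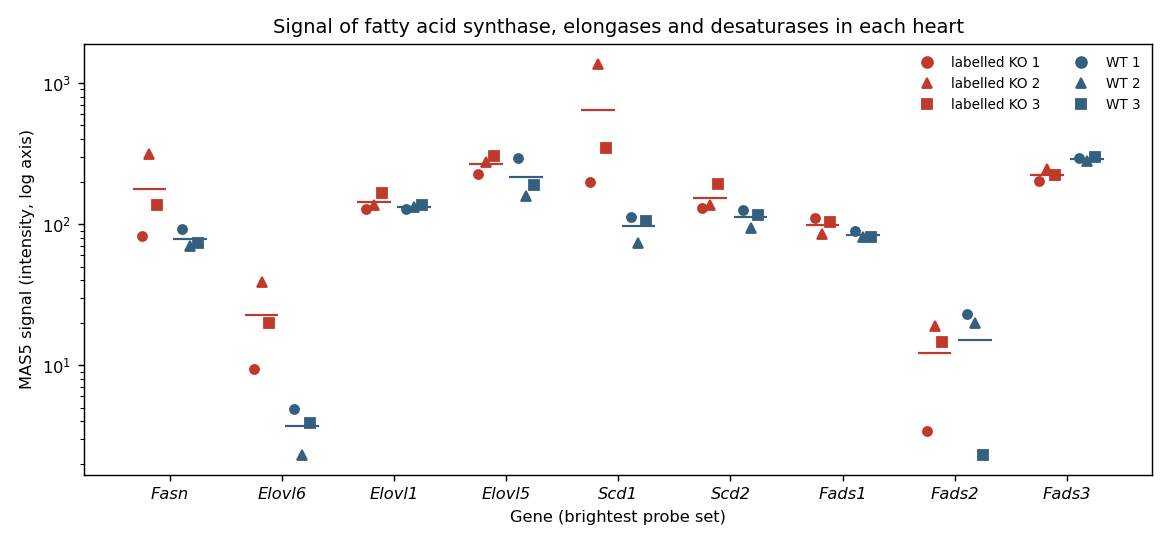
MAS5 signal (intensity, log axis) of the brightest probe set of each of the 9 measured members, with 1 point per heart, red for hearts labelled KO and blue for WT, and a bar at each mean of 3. Scd1 reached 1373 in KO 2, while Fads3 lay between 202.9 and 245.6 in the hearts labelled KO and between 278.9 and 298.2 in WT.

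Fasn, the multi-domain synthase that makes palmitate, gave signals of 82.7, 313.2 and 135.8 in KO 1 to 3, against 91.9, 70 and 73.1 in WT 1 to 3. KO 2 was the highest and KO 3 followed, but KO 1 lay within the WT range, so the groups overlapped. The means were 177 ± 121 in hearts labelled KO and 78.3 ± 11.9 in WT (SD, n = 3 each). The difference of 0.86 in log2 units had an SE of 0.223 and passed (limma adjusted p = 0.018). The call was lost without KO 2, where the difference was 0.38 (limma adjusted p = 0.601), and without WT 1, where it was 0.96 (0.273). With quantile normalization, where the size was almost the same at 0.87, the limma adjusted p was 0.199. Over the 21 alternatives other than a fat covariate the adjusted p ran from 2.57e-07 to 0.601, and Fasn passed in 10 of them. Fasn has a single probe set, so no other reading on the array was available to set beside it.

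Among the elongases, Elovl6, which lengthens palmitate to stearate, was the one that rose. Its brightest probe set gave 9.4, 38.7 and 19.8 in KO 1 to 3, against 4.9, 2.3 and 3.9 in WT 1 to 3. Every heart labelled KO was above every WT heart, with KO 2 the highest. The signals averaged 22.6 ± 14.9 in hearts labelled KO and 3.7 ± 1.31 in WT (SD, n = 3 each), and the WT values lie under the filter. On the log2 scale the difference of 0.90 (SE 0.243) passed (limma adjusted p = 0.0239). It moved with the pseudocount, from 2.16 with a pseudocount of 1 (limma adjusted p = 0.0661) to 0.34 with 64 (0.0194), and over its alternatives other than a fat covariate the adjusted p ran from 0.000846 to 0.173. A dimmer probe set of Elovl6 gave 1.4, 27 and 2.2 in KO 1 to 3, against 5.1, 7 and 1.5 in WT, so that KO 2 alone stood out. The dimmest gave 0.9, 9.7 and 0.8 in KO 1 to 3 and 13.8, 2.3 and 7.8 in WT, with no separation. Elovl6 did not pass without WT 1 (limma adjusted p = 0.172) or KO 3 (0.0556), with no filter (0.173) or with any of the 4 other scalings (0.0718 to 0.0902). Without KO 2 or with a filter at the 60th percentile it was under the filter and not tested. In all, Elovl6 passed in 11 of the 19 alternatives other than a fat covariate in which it was tested.

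Elovl5, which extends polyunsaturated chains, gave 224.8, 276.2 and 302 in KO 1 to 3, against 295.6, 159 and 190.3 in WT 1 to 3. WT 1 lay among the hearts labelled KO, and the groups overlapped. Its difference was 0.33 in log2 units (SE 0.180, 95% interval -0.03 to 0.69, limma adjusted p = 0.47). Its other probe set gave 183.2, 184.5 and 279.3 in KO 1 to 3, against 242.7, 180.7 and 183 in WT, a difference of 0.07. The brightest probe set of Elovl5 has the suffix _x_at, which marks probes that may also match other transcripts.

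Elovl1, the elongase of saturated very long chains, had the smallest difference of the elongases on its brightest probe set, with 128.3, 137.1 and 165.3 in KO 1 to 3, against 127.2, 133.1 and 135.8 in WT 1 to 3. Its log2 difference was 0.10 (SE 0.169, 95% interval -0.24 to 0.44, limma adjusted p = 0.885). Among its 3 other probe sets, 2 of like brightness had differences of 0.19 and 0.30, and the faintest stayed at 8.4 or less in every heart. The groups overlapped on all 4.

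Scd1, the main stearoyl-CoA desaturase of liver and fat, which turns stearate and palmitate into oleate and palmitoleate, had the largest log2 difference among the 9 measured members. Its signal was 200.1, 1373 and 345.7 in KO 1 to 3, against 112, 73.9 and 105.8 in WT 1 to 3. All hearts labelled KO lay above all WT hearts, and KO 2 was 3.97-fold above KO 3 and 6.86-fold above KO 1. The means were 639.6 ± 639 in hearts labelled KO and 97.2 ± 20.4 in WT (SD, n = 3 each), so the spread within the hearts labelled KO was as large as their mean. This was a log2 difference of 2.09 (SE 0.283, 95% interval 1.52 to 2.66, limma adjusted p = 7e-07). That SE was drawn mostly from other genes of like intensity and does not measure the spread of Scd1 itself. With robust variances the SE was 0.816 and the 95% interval -0.17 to 4.36, which includes 0. Its dimmer probe set kept the same order, at 18.8, 90.1 and 26.9 in KO 1 to 3, against 16.7, 9.8 and 11.2 in WT.

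Whether Scd1 passed depended on the scaling, the filter, the variance model and whether WT 1 was kept. Leaving out WT 1 did not lower the difference but raised its SE from 0.283 to 0.579. Without KO 2 the difference was 1.32 and without KO 1 it was 2.66, and Scd1 passed in both fits. It did not pass with quantile normalization (limma adjusted p = 0.051), with no filter on dim probe sets (0.103), with robust variances (0.423) or without WT 1 (0.109), where the differences were 2.12, 2.09, 2.09 and 2.19. In all, Scd1 passed in 17 of 21 alternatives other than a fat covariate, with adjusted p from 2.07e-35 to 0.423. The smallest came without KO 1, where the SE was 0.204 for Scd1 and 0.207 for each of Scd2, Elovl1 and Fasn. In that fit a gene's own spread thus hardly counted, and the p-value does not measure how Scd1 varied between hearts. The share of all genes called was 2.49% with a pseudocount of 1, 2.95% with median centring, 3.43% with quantile normalization, 3.45% with cyclic loess and 3.57% with scaling on the trimmed mean. It was 0.363% with no filter, 3.58% with robust variances, 0.944% without WT 1 and 1.99% without KO 2.

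Scd2, the isoform best known from brain and from early life, gave 130.1, 136.2 and 192.5 in KO 1 to 3, against 125.7, 93.1 and 116.4 in WT 1 to 3. The groups did not overlap, but KO 1 exceeded WT 1 by only a few units, and KO 3 rather than KO 2 was the highest. A log2 difference of 0.39 (SE 0.176, 95% interval 0.04 to 0.75) did not pass (limma adjusted p = 0.316). KO 3 was also the highest heart on its 2 other probe sets. The brighter of them gave 61.8, 53.4 and 77.2 in KO 1 to 3, against 39.3, 26.1 and 38.3 in WT. The dimmer gave 27.4, 23 and 34.8 in KO 1 to 3, against 19.3, 11.8 and 20.5 in WT. Each of the 3 Scd2 probe sets thus separated the groups, with log2 differences of 0.39, 0.66 and 0.42, and none passed. Separation upward was seen for 5.54% of all probe sets.

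**Figure D2:**
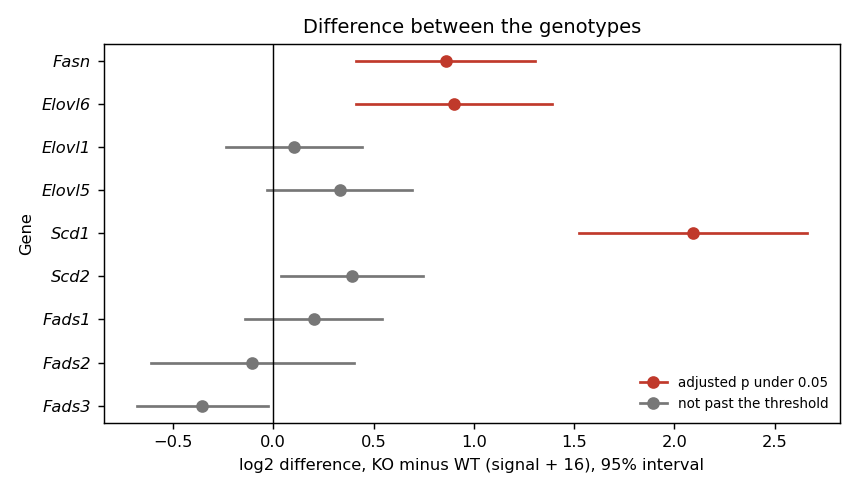
Difference in log2(signal + 16) between hearts labelled KO and WT hearts for the brightest probe set of each measured member, as a point with its 95% interval from limma, red where the adjusted p is under 0.05. Scd1 stands at 2.09, Elovl6 at 0.90 and Fasn at 0.86, and the other 6 lie between -0.35 and 0.39.

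None of the Fads genes passed the test. Fads1, the desaturase that yields arachidonic acid, gave 110.6, 84.6 and 102.7 in KO 1 to 3, against 89, 81.4 and 81.3 in WT 1 to 3. KO 1 was the highest heart and KO 2 lay within the WT range. The log2 difference of Fads1 was 0.20 (SE 0.171, 95% interval -0.14 to 0.54, limma adjusted p = 0.719). Its dimmer probe set stayed at 19.2 or less.

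Fads2, the desaturase that starts the conversion of linoleic and linolenic acids, was dim on all 3 of its probe sets, with no signal above 22.9. The brightest gave 3.4, 18.8 and 14.6 in KO 1 to 3, against 22.9, 20 and 2.3 in WT 1 to 3. High and low hearts were found in both groups. The log2 difference of Fads2 was -0.10 (SE 0.252, 95% interval -0.61 to 0.40), and its sign turned on this probe set without WT 1 (0.096), WT 2 (0.040) or KO 1 (0.15). Without KO 2 the difference was -0.28 on it, but another probe set, with a difference of 0.23, was then the brightest.

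Fads3, a relative of these desaturases that has been linked to the desaturation of sphingoid bases, was lower in every heart labelled KO than in every WT heart, as no other measured member was. It gave 202.9, 245.6 and 223.6 in KO 1 to 3, against 292.3, 278.9 and 298.2 in WT 1 to 3. The groups did not overlap, and KO 1 was the lowest. The log2 difference of Fads3 was -0.35 (SE 0.162, 95% interval -0.68 to -0.03, limma adjusted p = 0.336), so it did not pass over all genes. The dimmest of its 3 probe sets kept the groups apart too, at 31.7, 41.9 and 34.1 in KO 1 to 3, against 42.5, 45.2 and 45.1 in WT. The third, at 91.6, 173.1 and 151.4 in KO 1 to 3 and 140.4, 137.5 and 136.4 in WT, did not. In the RefSeq gene table Fads3, Fads2 and Fads1 are neighbours on chromosome 19, where Esrra also lies, with 73 protein-coding genes between Esrra and Fads3. Scd2, Scd4 and Scd1 are neighbours on the same chromosome, with 420 such genes between Esrra and Scd2. Whether this position bears on their differences was not tested.

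When all 45037 probe sets other than controls were fitted with no filter, none of the 23 probe sets of the members passed (limma, smallest adjusted p = 0.165, that of Scd1), against 0.102% of all probe sets in either direction and 0.0688% higher. At an unadjusted p under 0.05, 6 were higher, against 3.85% of all probe sets, and 1 was lower, against 4.24%. Of the 23, 6 lay higher in every heart labelled KO than in every WT heart, against 5.54% of all probe sets. These were both of Scd1, all 3 of Scd2 and the brightest of Elovl6, so most were repeat readings of Scd1 or Scd2. In the other direction, the brightest and the dimmest of Fads3 lay lower in every heart labelled KO. The share of all probe sets separated downward was not computed, and among genes tested it was 9.41%.

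Scd1 was also set against each of the 8 other measured members within an array. On the log2(signal + 16) scale, on which a ratio of dim signals is pulled toward 1 and still depends on an array's level, the log2 ratio of Scd1 to every one of the 8 was higher in all hearts labelled KO than in all WT hearts. The difference in that ratio was 1.19 for Elovl6, 1.23 for Fasn and 1.70 for Scd2, and at most 2.44, for Fads3. With no pseudocount, an alternative chosen after seeing the data in which the array's level cancels, 6 of the 8 ratios still separated the groups, with differences in the log2 ratio of 1.29 for Fasn, 1.81 for Scd2 and 2.63 for Fads3. Those to Elovl6 and Fads2 then overlapped. The signal of Scd1 was 21.3, 35.5 and 17.5 times that of Elovl6 in KO 1 to 3, against 22.9, 32.1 and 27.1 times in WT 1 to 3, a difference in the log2 ratio of -0.20. The ratio of Scd1 to Elovl6 thus did not differ beyond its spread on the deposited scale. Elovl6 gave only 4.9, 2.3 and 3.9 in WT 1 to 3, under the filter's signal of 8.17, so this ratio cannot show whether the 2 genes rose alike. With 3 hearts against 3 the exact permutation test (two-sided) cannot go below 0.1, so no ratio could pass 0.05. The exact permutation test gave p = 0.1 for each of the 8 on the log2(signal + 16) scale, also after adjustment over them, and with no pseudocount 0.6 for Elovl6, 0.2 for Fads2 and 0.1 for the other 6. Scd1 was chosen for these ratios with its rise already known.

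Adipoq, which encodes the adipocyte hormone adiponectin, served as the sign of fat tissue. Its signal was 54, 390.7 and 323 in KO 1 to 3, against 22.3, 15.7 and 17 in WT 1 to 3. KO 1 was thus the lowest of the hearts labelled KO, and KO 2 and KO 3 were close to each other. As multiples of the WT mean these hearts stood at 2.95, 21.3 and 17.6. The means were 256 ± 178 in hearts labelled KO and 18.3 ± 3.50 in WT (SD, n = 3 each). The log2 difference of Adipoq was 2.64 (SE 0.286, limma adjusted p = 3.43e-09), and it did not pass without WT 1 (0.0623) or with robust variances (0.297). Members were set against this order, with all hearts labelled KO above WT and KO 1 the lowest of them.

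Scd1, Elovl6 and Scd2 followed the order of Adipoq on their brightest probe sets, and 3.08% of all genes tested did so. The order includes separation upward, and Elovl6 passed the filter only through the hearts labelled KO, so this count is a description. The dimmer probe set of Scd1 followed the order too. On the other probe sets of Scd2, KO 2 rather than KO 1 was the lowest of the hearts labelled KO. The dimmer probe sets of Elovl6 did not separate the groups. KO 1 also kept the most Esrra signal, at 48.6% of the WT mean, so this order cannot tell fat signal from residual Esrra. Fasn had the same order among the hearts labelled KO, but KO 1 lay within WT. Elovl1, Elovl5, Fads1, Fads2 and Fads3 did not follow it, since none of them separated the groups upward. KO 1 was still the lowest of the hearts labelled KO for all of these but Fads1. For Fads2 and Fads3 those hearts rose from KO 1 over KO 3 to KO 2, as for Adipoq and Fasn. Separation from WT was thus what set Scd1, Elovl6 and Scd2 apart from Elovl1, Elovl5, Fads2 and Fads3. In multiples of the WT mean Scd1 stood at 2.06, 14.1 and 3.56 in KO 1 to 3, Elovl6 at 2.54, 10.5 and 5.35, and Fasn at 1.06, 3.998 and 1.73. Scd2 stood at 1.16, 1.22 and 1.72. The sizes differed from those of Adipoq. KO 2 exceeded KO 3 by 1.21-fold for Adipoq, but by 3.97-fold for Scd1, 2.31-fold for Fasn and 1.95-fold for Elovl6, while Scd2 was lower in KO 2 than in KO 3 (ratio 0.708).

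**Figure D3:**
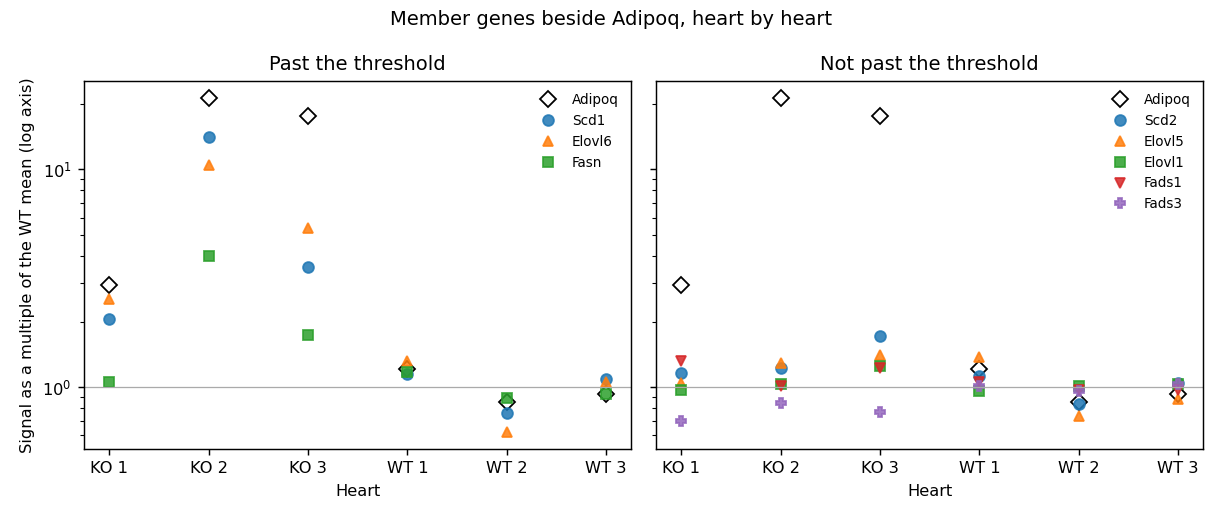
Signal of each gene in each heart as a multiple of its mean in the 3 WT hearts (log axis), for the 3 members past the threshold on the left and 5 that were not on the right, with Adipoq as open diamonds in both. In KO 2 Scd1 stands at 14.1 and Elovl6 at 10.5 beside Adipoq at 21.3, while the highest point of another gene on the right is Scd2 at 1.72 in KO 3.

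With log2 Adipoq as a covariate the difference in Scd1 was 0.04 (SE 0.350), in Elovl6 -0.03 (SE 0.461), in Fasn -0.54 (SE 0.354) and in Scd2 0.09 (SE 0.354). None of the members passed in that fit (limma), in which 0.201% of genes did, and 1 member, Fads2 (-0.97, SE 0.450), had an unadjusted p under 0.05. Esrra itself was at -0.01 with Adipoq as a covariate, against -2.58 without it. With a score of 3 fat genes in place of Adipoq the differences were 0.43 in Scd1, 0.13 in Elovl6 and -0.31 in Fasn, where 0.255% of all genes passed (limma) and again no member did. The groups did not overlap in Adipoq, so fat signal and genotype cannot be told apart in these 6 hearts.

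Of 12 listed adipocyte markers 9 were tested, of which 5, Adipoq, Car3, Retn, Cidec and Cebpa, rose. The other 4 did not pass, and at an unadjusted p under 0.05 none was lower. The summed signal over the 10 measured was 4460 to 6325 in hearts labelled KO and 4052 to 4822 in WT. Car3, the carbonic anhydrase of adipocytes and slow muscle, gave 235, 1331.5 and 1147.7 in KO 1 to 3, against 29.7, 42.8 and 67.8 in WT 1 to 3. Retn, the adipokine resistin, gave 15.9, 60.8 and 33.1 in KO 1 to 3, against 15.6, 8.8 and 8.7 in WT, and like Scd1 it was highest in KO 2. Cidec, a lipid droplet protein, gave 11.6, 33.7 and 37.9 in KO 1 to 3, against 12.2, 7.9 and 5.4 in WT. For Cidec KO 1 lay within WT. Cebpa, a regulator of adipocyte differentiation, gave 41.5, 58.5 and 69.8 in KO 1 to 3, against 26.6, 17.8 and 29.3 in WT (log2 difference 0.83). Without WT 1 the limma adjusted p was 0.0288 for Car3, 0.17 for Retn, 0.175 for Cidec and 0.0837 for Cebpa. With robust variances Car3 had an adjusted p of 0.168, and its difference was 3.59 as reported and 1.65 with the mean of its probe sets. Retn, Cidec and Cebpa did not pass with no filter (0.266, 0.272 and 0.142), and Retn and Cidec did not with any of the 4 other scalings (0.0808 to 0.111). Retn also failed without KO 2 (0.385), Cebpa without KO 3 (0.0669), and Cidec without WT 2, WT 3, KO 2 or KO 3 (0.0597 to 0.394). Fabp4 and Plin4, named after their values were seen and also known from vessels and muscle, did not pass. Fabp4 averaged 3588 ± 406 in hearts labelled KO and 3728 ± 364 in WT (SD, n = 3 each), a difference whose sign turned with quantile normalization and cyclic loess. Plin4 averaged 492 ± 11.1 in hearts labelled KO and 485 ± 35.4 in WT. Of the defining markers, Lep stayed at 6.9 or less in every heart and Plin1 had no probe set of its own in the platform table.

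Ucp1, the uncoupling protein that marks brown adipocytes, gave 16.7, 49.5 and 2.7 in KO 1 to 3, against 1, 1.8 and 0.7 in WT 1 to 3. Its highest heart was KO 2, the one in which Scd1, Fasn and Elovl6 were highest too. Ucp1 (log2 difference 1.00) and Ppargc1a (1.04), a coactivator gene also active in heart, were the 2 of 7 brown adipocyte markers that rose, and 5 did not pass. Ucp1 passed the filter only through the hearts labelled KO, since its WT mean of 1.17 lies under the filter's signal, so its call is a description. Cidea, a lipid droplet protein of brown fat named after its values were seen, was lower in every heart labelled KO, at 187.3, 216.2 and 118.7 in KO 1 to 3, against 297.6, 230.6 and 257.8 in WT. Its log2 difference of -0.58 (SE 0.179) did not pass (limma adjusted p = 0.0648), and it was the 1 brown adipocyte marker lower at an unadjusted p under 0.05. The summed signal over the 7 was 6534 to 6758 in hearts labelled KO and 6216 to 7237 in WT. Ppargc1a gave 988.5, 1087 and 1295.3 in KO 1 to 3, against 613.9, 500.2 and 503.3 in WT. Ucp1 did not pass without WT 1 (limma adjusted p = 0.305), with no filter (0.301) or with any of the 4 other scalings (0.142 to 0.179), and it was not tested without KO 1 or KO 2, where it fell under the filter. The part of brown fat in the differences of Scd1, Fasn and Elovl6 was not tested.

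Of 7 atrial markers tested 6 rose in the hearts labelled KO, namely Sln, Myl4, Myl7, Mybphl, Bmp10 and Nppa, and the summed signal over the 8 measured was 13630 to 16243 in hearts labelled KO and 2983 to 9643 in WT. Sln, an inhibitor of the calcium pump in atria, gave 2455.2, 2215.1 and 1594.4 in KO 1 to 3, against 317.9, 233.1 and 924.1 in WT 1 to 3. It was highest in KO 1, where Scd1 was lowest among the hearts labelled KO, and WT 3 was the highest of WT. Without WT 1 Bmp10 alone of the 6 passed (limma adjusted p = 0.0397), and Sln, Myl4, Myl7, Mybphl and Nppa had adjusted p from 0.0515 to 0.109. Those 5 did not pass with robust variances either (0.235 to 0.361), nor did Myl7 and Nppa with no filter (0.0739 each), and Myl4 was at 0.90 with the mean of its probe sets (1.68 as reported). The part of atrial tissue in the members' differences was not tested. Of 7 myelin and Schwann cell markers tested 1 rose, Mbp (0.84), with 59 and 64.1 in KO 2 and KO 3 and 19.9 in KO 1, within the WT range of 11.4 to 22.3. Mbp did not pass without WT 1, WT 2, KO 2 or KO 3 (limma adjusted p = 0.0633 to 0.208, for the last 2 from another probe set that was then the brightest), with no filter (0.324) or with the mean of its probe sets (0.50, adjusted p = 0.26). Their summed signal over the 7 measured was 6149 to 6942 in hearts labelled KO and 6279 to 7163 in WT. Of the 9 ventricular markers none passed (limma), and 1, Mybpc3 (-0.33), was lower at an unadjusted p under 0.05. Mybpc3 passed without KO 1 (-0.43, limma adjusted p = 0.038), and all 9 differences were below 0. Myl3 had the next smallest p, with a difference of -0.13.

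The remaining enzymes of elongation and desaturation did not change beyond the test. Of 18 listed genes, among them Elovl2, Elovl3, Elovl4, Elovl7, the Hacd dehydratases, the reductase Tecr and the cytochrome b5 chain, 14 were tested. None passed (limma), and 0 did at an unadjusted p under 0.05. Their median log2 difference was 0.004, against 0.33 for the members and -0.028 for all genes. The smallest p-values belonged to Hacd4, a dehydratase of the elongation cycle (-0.28, SE 0.182, limma adjusted p = 0.584), and to Cyb5r3, the reductase of cytochrome b5 (0.17, SE 0.164, limma adjusted p = 0.773). Scd3, a skin isoform beside Scd2, was under the filter, with signals of 9.1, 2.1 and 6.4 in KO 1 to 3, against 6.3, 23.1 and 4.6 in WT 1 to 3.

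Of the genes that supply and activate fatty acids, 1 of 18 tested rose and 0 fell, with 2 higher and 5 lower at an unadjusted p under 0.05 (limma). The one that rose was Acsl6, an acyl-CoA synthetase that favours polyunsaturated chains. It gave 109.7, 291.1 and 304.3 in KO 1 to 3, against 84.3, 69.4 and 64.1 in WT 1 to 3 (log2 difference 1.39, SE 0.210, limma adjusted p = 7.65e-06). It followed the order of Adipoq, with KO 2 and KO 3 close together, and did not pass without WT 1 (limma adjusted p = 0.0692) or with no filter (0.0739). With the mean of its probe sets the difference of Acsl6 was 0.72 (limma adjusted p = 0.0361). Acly and Acaca, which act before Fasn and were named after their values were seen, did not pass. Acly, which makes cytosolic acetyl-CoA, gave 259.5, 370.6 and 266.8 in KO 1 to 3, against 265.5, 219 and 226.1 in WT (0.30, SE 0.168). Acaca, the acetyl-CoA carboxylase of lipogenesis, gave 71.6, 87.3 and 50.1 in KO 1 to 3, against 69.7, 60.2 and 65 in WT (0.06, SE 0.179). Both were highest in KO 2, as Fasn was. The 5 genes lower at an unadjusted p under 0.05 (limma) were Acss2 (-0.50), Idh1 (-0.58), Mcat (-0.53), Mlycd (-0.47) and Acacb (-0.32). All of these but Idh1 were lower in every heart labelled KO than in every WT heart, as 9.41% of all genes were.

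Among 22 regulators of lipogenesis tested, 1 rose, Cebpa, and 0 fell, with 1 higher and 2 lower at an unadjusted p under 0.05 (limma). Those 2, named after their values were seen, were Srebf1 and Insig1. Srebf1, which encodes the SREBP factor that drives Fasn and Scd1 in liver, gave 145.8, 119.7 and 125.2 in KO 1 to 3, against 199.3, 164.9 and 165.5 in WT 1 to 3. It was lower in every heart labelled KO than in every WT heart, as 9.41% of all genes were (log2 difference -0.40, SE 0.169, limma adjusted p = 0.273). The part of SREBP in the differences of Fasn and Scd1 was not tested. Insig1, which retains SREBP in the endoplasmic reticulum, gave 25.7, 33.3 and 27.2 in KO 1 to 3, against 53.3, 52.8 and 32.8 in WT (-0.46, SE 0.187, limma adjusted p = 0.228). The groups overlapped for Insig1.

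Among 15 tested genes that place unsaturated chains in phospholipids or release them, 1 rose and 1 fell. Agpat2, an acyltransferase of glycerolipid synthesis that is prominent in adipocytes, fell to 268.5, 320.9 and 174.2 in KO 1 to 3, against 438.6, 365.8 and 356.8 in WT 1 to 3 (log2 difference -0.61, SE 0.175, limma adjusted p = 0.0385). Pla2g5, a secreted phospholipase expressed in heart, gave 107.6, 194.9 and 186.1 in KO 1 to 3, against 120.9, 69.8 and 97.6 in WT (0.66, SE 0.190, limma adjusted p = 0.0389). KO 1 lay within WT for Pla2g5. Without WT 1, WT 3 or KO 3 Agpat2 did not pass (limma adjusted p = 0.0531 to 0.595), and Pla2g5 passed when KO 1 was left out but not when any other heart was (0.0607 to 0.28). Neither passed with quantile normalization (limma adjusted p = 0.123 for Agpat2 and 0.0913 for Pla2g5), and both differences kept their sign in every alternative without a fat covariate.

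**Figure D4:**
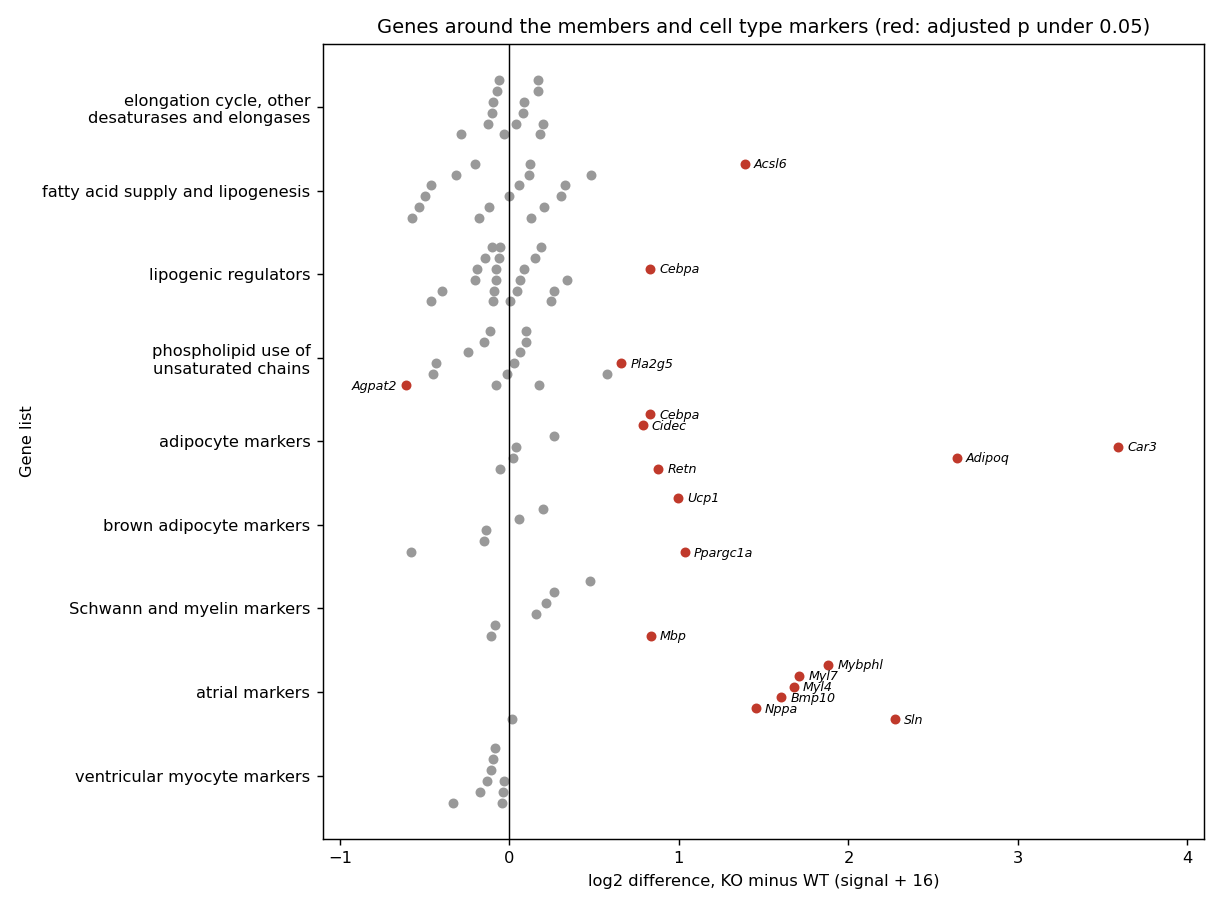
Difference in log2(signal + 16) between hearts labelled KO and WT hearts for each tested gene of 4 lists around the members and 5 lists of cell type markers, 1 point per gene, spread vertically for legibility, red and named where the adjusted p is under 0.05. Red are 6 of the 7 atrial and 5 of the 9 adipocyte markers, against 0 of the 14 other elongation and desaturation genes.

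The genes whose deviations from the WT mean lay closest to a member over the 6 arrays were listed by the root mean square of the difference in log2 units. For Scd1 these were Jchain (0.475), Scgb1a1 (0.535), Ighm (0.593), Cyp2e1 (0.606) and Atp2b2 (0.625), with Adipoq at 0.670. For Fasn they were Retn (0.159), Tmem45b (0.179), Elovl6 (0.204), Tbx1 (0.277) and Wfdc2 (0.278). For Elovl6 they were Retn (0.0973), Tbx1 (0.135), Wfdc2 (0.147), B4galt5 (0.156) and Zfp30 (0.161). Adipoq lay at 1.35 from Fasn and at 1.34 from Elovl6, far from both by this measure, which counts the size of a difference. Fasn and Elovl6 shared Retn as their nearest gene, and Fasn had Elovl6 among its 5 nearest. Jchain and Ighm encode parts of immunoglobulins, and Scgb1a1 is an airway secretory gene.

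**Figure D5:**
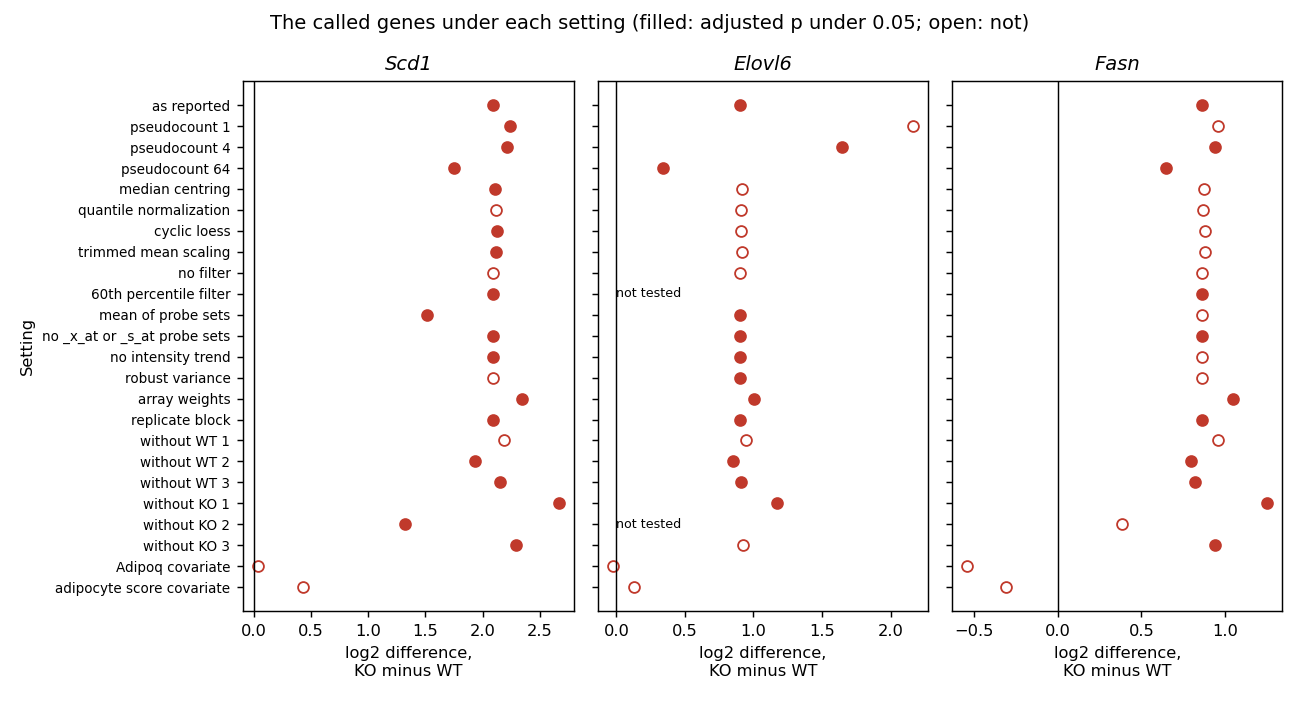
Log2 difference between hearts labelled KO and WT hearts in Scd1, Elovl6 and Fasn as reported and under each of 23 alternatives, filled where the adjusted p is under 0.05 and open where not. Scd1 ran from 1.32 to 2.66 without a fat covariate, and all 3 genes lay at or below 0.43 with one.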

How the data were processed

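Transcript signals in 6 mouse hearts were measured on Affymetrix arrays, 1 array per heart. The authors deposited a linear signal intensity per probe set, made with MAS5 per the submitters' processing notes. How it was scaled is unknown, and no detection calls were used. The intensity ran from 0 to 10889.5. No further normalization was applied in the fits as reported. Of 45099 probe sets 62 controls were left out, and of the rest 34945 had 1 gene symbol in the platform table, 932 several and 9160 none, and only the first kind was named.

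From log2(signal + 16), probe sets under the 40th percentile of the mean over all arrays (a signal of 8.17) were left out, each gene was read from its brightest one, and groups were compared with limma 3.58.1 (R 4.3.3; lmFit, eBayes with intensity trend, two-sided, Benjamini-Hochberg, threshold 0.05). In the fit as reported limma weighed the variance common to genes of like intensity with 45.6 prior degrees of freedom, so a gene's own spread counted little. This weight differed between alternatives, so their adjusted p-values also differ for that reason. All probe sets of the members and Esrra were also fitted without the filter. The number of arrays limits the precision. The procedure was tested on simulated data. No 2 arrays held identical values.

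The members and lists were chosen with earlier results of these data known. Named were all members, Esrra, Adipoq, up to 6 genes past the threshold in each list or otherwise the 2 of smallest p, and the 5 genes nearest to each called member. The brightest probe set was chosen anew in each alternative. Alternatives were other pseudocounts (none, for ratios, added after seeing the data), scalings, filters, probe set rules, variance models, array weights, a replicate block, leaving out each heart, and Adipoq or the mean of Adipoq, Cidec and Lep as a covariate, from which Plin1 was missing.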

Additional observations from a re-analysis of the deposited data

How the results depend on the processing

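Scd1, Scd2, Fads1 and Fads3 kept their direction in all 23 alternatives. Of the 9 members tested, 3 were called as reported. The count was 1 with a pseudocount of 1, median centring, cyclic loess, scaling on the trimmed mean (each time Scd1) or robust variances (Elovl6). It was 0 with quantile normalization, no filter, and either fat covariate, with 6, 5, 1 and 1 members at an unadjusted p under 0.05. Leaving out 1 heart gave 0 (WT 1, with 6 at an unadjusted p under 0.05) to 3 members called, 103 to 299 genes higher and 19 to 209 lower, against 231 and 153 as reported. No filter gave 48 genes higher and 18 lower, no intensity trend 114 and 57, the Adipoq covariate 16 and 10, the adipocyte score 22 and 11, and array weights 434 higher. Among all probe sets, 1 of the members' was called with a pseudocount of 1 or without KO 1, against 0. Esrra passed in the unfiltered fit with a pseudocount of 1 (adjusted p = 0.00608) or 4 (0.0227), with differences of -3.07 and -2.95, with median centring (-2.57) or a replicate block (-2.58), and without KO 1; leaving out 1 heart gave -3.39 to -2.12.

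With the Adipoq covariate the sign turned for Elovl1 (-0.092), Elovl5 (-0.11), Elovl6 (-0.028), Fasn (-0.54), Cyb5r3 (-0.091), Acsl6 (-0.050), Pla2g5 (-0.20), Retn (-0.23), Cidec (-0.21), Mbp (-0.39) and Acly (-0.046). With the adipocyte score it turned for Elovl1 (-0.066), Elovl5 (-0.16), Fasn (-0.31), Cyb5r3 (-0.10), Pla2g5 (-0.13), Retn (-0.080), Cidec (-0.12), Mbp (-0.25) and Acly (-0.00252). Cidec is itself part of that score, so its value there is not a separate reading. Lep, also part of it, stayed at 6.9 or less in every heart. Fads2 turned with array weights (0.10) and over single hearts left out (-0.45 to 0.23, the upper end from another probe set that was brightest without KO 2, where the reported one was at -0.28), and Fabp4 with quantile normalization (0.011), cyclic loess (0.0054), the mean of probe sets (0.00803) and over hearts left out (-0.14 to 0.0106). Plin4 (-0.0365 to 0.0601) and Acaca (-0.0879 to 0.23) turned over hearts left out. The cause was not tested.

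The labels number mice 1 to 3 in each genotype without saying that numbers pair. Deviations from the group means of same-numbered hearts correlated at 0.027, -0.016 and 0.029, so they were not taken as pairs. With the replicate number as a block 237 genes were higher and 175 lower, Scd1, Fasn and Elovl6 passed (adjusted p = 4.19e-07, 0.0147 and 0.0219), and so did Mybpc3 (0.0267). The scaling alternatives moved the median of all genes by less than 0.1. For the ratios of Scd1 to another member, every difference kept its sign in the alternatives run for them, except that to Elovl6 with no pseudocount (-0.20, chosen after seeing the data), and that to Fasn lay between 0.94 and 1.41 when 1 heart was left out. Dim signals such as those of Elovl6 in WT and Fads2 limit what can be said of these genes.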
